A study of Mus musculus with 12 samples.

Results

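The genes described here are 10 that encode neuronal calcium-binding or calcium-regulated proteins, out of 23282 gene rows in the count tables. They are Pcp4 and Nrgn, the calcium buffers Calb1, Calb2 and Pvalb, the calcium sensors Hpca, Hpcal1, Hpcal4 and Ncald, and the kinase gene Itpka. Pcp4 was chosen from these data, by its lower values in the striatum of R6/2 mice, so its striatal values are a description and carry no test. The other 9 were selected by function, as calcium sensors and buffers of interneurons or projection neurons. That choice was made with earlier results of these data known. All 10 genes were listed in every table and passed the filter on low counts, leaving 10 of the 14706 genes tested.

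The 12 libraries came from the striatum and cortex of R6/2 mice, called HD mice, and of wild-type (WT) littermates. In R6/2 mice an added fragment of the human huntingtin gene, with a lengthened CAG repeat and the human promoter, is expressed beside the mouse Htt alleles. HD mice were sampled at 13 weeks, after symptom onset (post-symptomatic), and at 8 weeks, before it (pre-symptomatic), with 2 libraries for each stage and region. WT mice of each age gave 1 library per region, so the lone WT library was assumed to vary like the HD pairs. The labels do not say whether libraries are single mice or pools, and p-values then measure only the spread between these libraries.

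Calcium entering a neuron binds buffers, which shape the signal, and sensors, which pass it on. Calbindin (Calb1), calretinin (Calb2) and parvalbumin (Pvalb) are EF-hand buffers that are widely used as markers of interneuron classes, and Calb1 is also found in striatal projection neurons. Hippocalcin (Hpca), its relatives Hpcal1 and Hpcal4, and neurocalcin delta (Ncald) are myristoylated neuronal calcium sensors that move to membranes when calcium rises. PCP4 (Pcp4) and neurogranin (Nrgn) bind calmodulin through an IQ motif and set its availability, and ITPKA is a calmodulin-activated kinase that phosphorylates inositol trisphosphate, the messenger that opens calcium stores.

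Library totals ran from 8814386 to 12091201 reads, and levels are given as CPM, counts relative to library size after edgeR's scaling by trimmed mean of M values (TMM). Choroid plexus markers were high in replicate 2 of the post-symptomatic HD cortex, at 3641 CPM. Among the striatal libraries 1 stood apart from its label. In replicate 2 of the pre-symptomatic HD striatum, the 5 thalamus markers summed to 1340.0 CPM, against 43.6 to 115 in the other striatal libraries, and 8 oligodendrocyte markers to 21019.6 CPM against 3414 to 7296. Its striatal projection neuron markers summed to 2668 CPM, against 8503 and 9005 CPM in the WT libraries and 8356 CPM in its partner. In the post-symptomatic HD striatum the same sum was 1832 and 1791 CPM, with 9 of 10 markers at 1 CPM or more. In cortex it was 251 to 604 CPM. Drd2, a marker of a class of striatal projection neurons, was under 1 CPM in every library. In the WT striatum of 8 weeks it had 2 reads, beside 206 CPM of Adora2a and 2074 CPM of Penk. The reason for its low counts was not tested. X- and Y-linked transcripts separated replicate 1 from replicate 2 in all 4 HD groups, and the WT libraries of 13 weeks from those of 8 weeks, so sex moved with the replicate number and with WT age. The share of reads on the ribosomal Rn45s row was 4.32 to 5.62% in WT and 10.5 to 15.2% in HD libraries. With sex as a term, or without the Rn45s row, the members called in the comparisons of HD mice over both regions numbered the same, 2 against WT and 3 between stages. The Rn45s share did not overlap between genotypes, so leaving out its row cannot separate what goes with that share from genotype. In bulk tissue, fewer cells of a type and less RNA per cell cannot be told apart.

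The upstream sequences of 4 genes are shown, those of Pcp4 and of the 3 genes that passed the test in a comparison of HD mice across both regions. RefSeq windows of 250 bases before to 50 after the gene start (GRCm38.p6, the mm10 build of the files) were found for 7 of the 10 genes. Capitals mark the matches, on either strand, to any of 4 motifs: TGACGTCA (CRE), GCGNGGGCG (EGR), GGGCGG (Sp) and TATAAA (the core promoter box). The windows lie at chr16:96467356-96467655 on the plus strand, chr9:37552696-37552995 on the minus strand, chr2:119742087-119742386 on the plus strand and chr12:17690559-17690858 on the plus strand, in the order Pcp4, Nrgn, Itpka and Hpcal1.
Pcp4: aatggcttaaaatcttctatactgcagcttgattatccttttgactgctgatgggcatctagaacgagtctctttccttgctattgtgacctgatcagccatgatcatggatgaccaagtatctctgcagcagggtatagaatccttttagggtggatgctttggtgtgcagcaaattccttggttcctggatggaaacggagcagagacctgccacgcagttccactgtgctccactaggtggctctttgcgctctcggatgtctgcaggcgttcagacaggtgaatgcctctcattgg
Nrgn: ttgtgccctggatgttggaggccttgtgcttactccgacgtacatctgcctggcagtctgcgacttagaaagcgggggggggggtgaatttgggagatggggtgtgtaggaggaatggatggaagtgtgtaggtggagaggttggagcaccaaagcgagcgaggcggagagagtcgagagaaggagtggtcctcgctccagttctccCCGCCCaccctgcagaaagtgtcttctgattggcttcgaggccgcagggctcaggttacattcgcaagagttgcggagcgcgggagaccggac
Itpka: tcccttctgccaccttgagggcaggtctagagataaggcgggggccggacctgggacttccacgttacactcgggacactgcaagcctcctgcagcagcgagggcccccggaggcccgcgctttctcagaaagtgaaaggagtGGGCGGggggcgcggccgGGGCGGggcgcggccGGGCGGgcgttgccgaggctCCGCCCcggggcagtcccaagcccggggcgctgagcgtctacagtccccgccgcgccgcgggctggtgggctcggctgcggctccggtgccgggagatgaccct
Hpcal1: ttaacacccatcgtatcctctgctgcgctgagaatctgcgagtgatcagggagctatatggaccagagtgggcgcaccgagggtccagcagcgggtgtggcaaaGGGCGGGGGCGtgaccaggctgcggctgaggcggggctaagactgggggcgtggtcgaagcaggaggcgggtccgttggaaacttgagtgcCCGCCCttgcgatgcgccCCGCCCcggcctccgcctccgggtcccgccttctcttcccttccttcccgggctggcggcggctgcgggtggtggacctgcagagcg

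The Pcp4 window held none of the 4 motifs, and 48.7% of its bases were G or C, against a median of 52.7% over 32851 windows of this length. The other 3 windows were richer in G and C, at 59.3% for Nrgn, 73.7% for Itpka and 68.3% for Hpcal1. The Sp letters occurred once in the Nrgn window, 4 times in the Itpka window and 3 times in the Hpcal1 window, and 35.7% of all windows hold them. In the Hpcal1 window an EGR match overlapped the Sp match furthest upstream, and 5.55% of all windows hold the EGR letters. No CRE or core promoter box letters were found in the 4 windows, and 1.79% and 13.6% of all windows hold them. No motif of the 4 was found in all 4 windows.

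Pcp4, the gene chosen for its fall, is annotated at chr16:96467606-96525793. In the WT striatum it stood at 1012 CPM at 8 weeks and 1295 CPM at 13 weeks. The pre-symptomatic HD striatum gave 913 and 1418 CPM and the post-symptomatic HD striatum 228 and 242 CPM. Both post-symptomatic libraries were thus far below the other 4, including the library with thalamus markers, and their mean was 20.4% of the WT mean. The log2 fold change was -2.46 against WT and -2.31 against the pre-symptomatic stage, given without a test. Leaving out pre-symptomatic replicate 2, the library with thalamus markers, gave -1.96 against that stage, and leaving out replicate 1 gave -2.59. In the cortex, which did not choose the gene, Pcp4 stood at 351 and 374 CPM in WT, 342 and 269 CPM in pre-symptomatic HD and 144 and 114 CPM in post-symptomatic HD libraries. There the groups did not overlap either, and the mean was 35.6% of WT. Pcp4 was also higher in WT striatum than in WT cortex, by a log2 difference of 1.66.

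The cortical fall of Pcp4 was tested with all 12 libraries in one fit of 8 group means, which has 4 residual degrees of freedom. The striatal pairs, whose values chose the gene, enter its estimate of spread. The labels do not say whether the cortex came from the same mice as that striatum. Its log2 fold change was -1.53 ± 0.28 (SE) against WT (edgeR quasi-likelihood, adjusted p = 0.121) and -1.24 ± 0.24 against pre-symptomatic HD (adjusted p = 0.0709), and neither passed 0.05. A fit of the 6 cortex libraries alone, added after the data had been seen, takes its spread from the cortex pairs and leaves 2 residual degrees of freedom. In that fit Pcp4 fell against WT, with a log2 fold change of -1.54 ± 0.16 (SE, edgeR adjusted p = 5.92e-07), and against pre-symptomatic HD with adjusted p = 6.80e-07. Igsf5, a gene on the same strand that overlaps Pcp4, had 0 to 9 reads per library.

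Nrgn, the postsynaptic calmodulin-binding partner in this pair (chr9:37544492-37552904), had the lowest adjusted p against WT of the 9 genes tested over both regions. Its cortical level was 16649 and 12953 CPM in WT, 12704 and 14019 CPM in pre-symptomatic HD and 5327 and 4825 CPM in post-symptomatic HD mice. In the striatum it was 4963 and 7027 CPM in WT, 4853 and 2206 CPM in pre-symptomatic HD and 1757 and 2215 CPM in post-symptomatic HD mice. The post-symptomatic values were below every WT value of their region, but in the striatum the higher of them, at 2215 CPM, was level with the 2206 CPM of the pre-symptomatic replicate 2. Means fell to 33.1% of WT in striatum and 34.3% in cortex. With both regions in an additive fit, Nrgn fell against WT, with a log2 fold change of -1.62 ± 0.28 (SE, edgeR adjusted p = 0.00716), and against pre-symptomatic HD, with -1.12 ± 0.24 (adjusted p = 0.0188). Without the WT striatum library of 13 weeks the first change was -1.19 with adjusted p = 0.192, so 1 WT library carried that call.

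**Figure D1:**
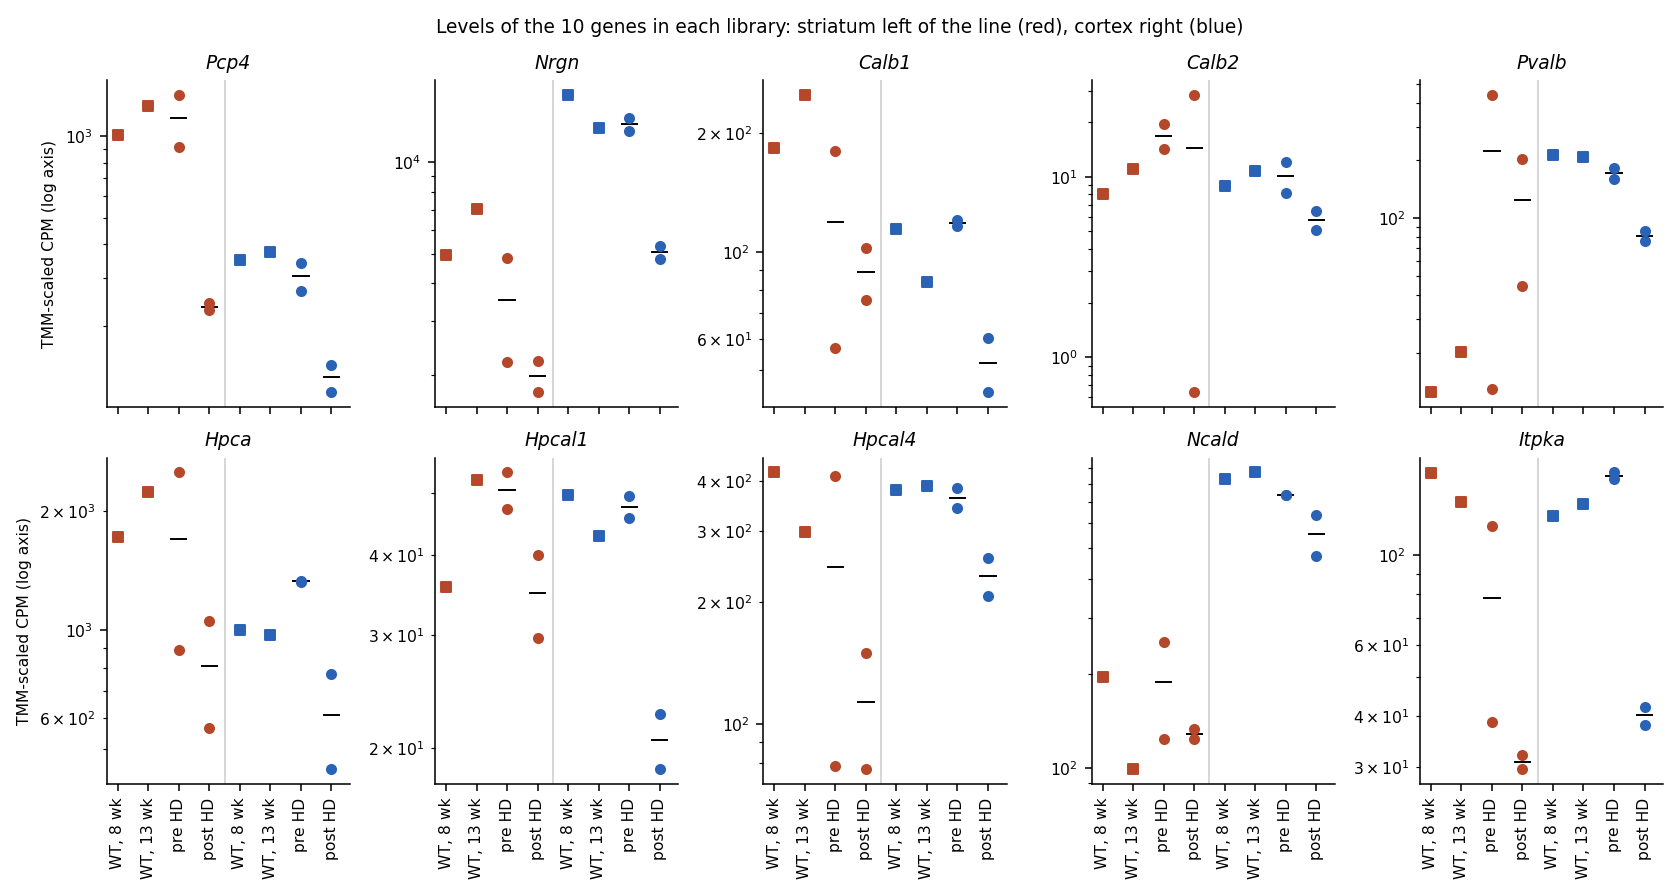
Levels of the 10 genes in each of the 12 libraries, as TMM-scaled CPM on a log axis, with WT (squares) and HD (circles) libraries by group and a bar at the mean of each HD pair. In cortex the post-symptomatic HD pair of every gene lies below both WT libraries (30.5% of all genes tested) and both pre-symptomatic HD libraries (28.5%). In striatum it lies below both WT libraries for 6 genes (30.6% of all genes). Pcp4, chosen for its striatal values, is among the 6.

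Itpka (chr2:119742337-119751263) had the largest log2 change against WT of these 9 genes in the fit of both regions. In cortex the WT libraries gave 125 and 134 CPM, the pre-symptomatic HD libraries 159.9 and 154 CPM and the post-symptomatic HD libraries 38.1 and 42.3 CPM. In striatum the values were 159 and 135 CPM in WT, 118 and 38.7 CPM in pre-symptomatic HD and 29.6 and 32.2 CPM in post-symptomatic HD mice. Groups did not overlap in either region. The pair means at the post-symptomatic stage were 21% of WT in striatum and 31% in cortex. In the additive fit Itpka fell against WT, with a log2 fold change of -1.95 ± 0.38 (SE, edgeR adjusted p = 0.0149), and against pre-symptomatic HD, with -1.69 ± 0.33 (adjusted p = 0.0149). Leaving out the WT library of 13 weeks from striatum gave adjusted p = 0.224, and leaving out that from cortex gave 0.0742, with log2 changes of -1.69 and -2.19.

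Among the calcium sensors, Hpcal1 was the member called by edgeR in a comparison of HD mice across both regions. Hpcal1 (VILIP-3, chr12:17690856-17791933) stood at 49.7 and 42.8 CPM in WT cortex, 45.7 and 49.5 CPM in pre-symptomatic HD cortex and 22.6 and 18.5 CPM in post-symptomatic HD cortex. In striatum it was 35.7 and 52.5 CPM in WT, 53.9 and 47.3 CPM in pre-symptomatic HD and 40.1 and 29.7 CPM in post-symptomatic HD mice. The cortical groups were separate, whereas in striatum the post-symptomatic values overlapped those of WT. Between HD stages, with both regions, Hpcal1 fell, with a log2 fold change of -0.85 ± 0.20 (SE, edgeR adjusted p = 0.0252). Against WT its change was -0.80 ± 0.24, with an adjusted p of 0.0613 by edgeR and 0.0311 by DESeq2. In cortex, in the fit of 8 group means, the change between stages was -1.21 ± 0.22 with edgeR adjusted p = 0.0531, which became 0.0435 with a replicate block, 0.0472 without the Rn45s row and 0.0493 with DESeq2 size factors.

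Hippocalcin (Hpca, chr4:129111570-129122036) was 1003 and 969 CPM in WT cortex, 1332 and 1319.7 CPM in pre-symptomatic and 445 and 776 CPM in post-symptomatic HD cortex. The striatal values were 1716 and 2229 CPM in WT, 2499 and 888 CPM in pre-symptomatic and 565 and 1055 CPM in post-symptomatic HD mice. Post-symptomatic pairs were lower than WT in both regions, but the 2 libraries of each pair differed widely. The both-region changes were -1.09 ± 0.39 against WT and -1.09 ± 0.33 between stages. Their adjusted p was 0.128 and 0.0813 by edgeR, and 0.0334 and 0.00652 by DESeq2. The 3′ end of Hpca shares 57 bases with Tmem54, on the opposite strand. Tmem54 had 0.45 to 0.83 reads for each Hpca read in the 12 libraries, and since the counting rule is not given in the sources used here, how reads of the overlap were assigned cannot be told.

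Neither of the remaining sensors, Hpcal4 and Ncald, passed the test in a comparison of HD mice across both regions. Hpcal4 (chr4:123183227-123194701) was 379 and 389 CPM in WT cortex and 383 and 343 CPM in pre-symptomatic against 257 and 207 CPM in post-symptomatic HD cortex. In striatum it was 419.6 and 298 CPM in WT and 149.8 and 77.1 CPM in post-symptomatic HD mice, while the pre-symptomatic HD pair split at 410.2 and 78.4 CPM, the lower value in the library with thalamus markers. Its both-region change of -1.05 ± 0.53 against WT did not pass (edgeR adjusted p = 0.285). Ncald (chr15:37366175-37792570) had the lowest adjusted p between WT regions of the 9 genes tested. It stood at 828 and 871 CPM in WT cortex against 195 and 99.3 CPM in WT striatum, a log2 difference of -2.61 ± 0.32 (edgeR adjusted p = 0.00301). The difference of Pvalb was larger, at -3.73 ± 1.64, and did not pass (adjusted p = 0.255). Post-symptomatic HD cortex had 636 and 473 CPM of Ncald, below the 737 and 739 CPM of the pre-symptomatic pair, and the striatal values of 133 and 124 CPM lay between the WT libraries.

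Calb1 (chr4:15881264-15908064) was 114 and 83.6 CPM in WT cortex, 116 and 120.1 CPM in pre-symptomatic and 60.5 and 44 CPM in post-symptomatic HD cortex. In striatum it was 183 and 250.1 CPM in WT and 102 and 75.2 CPM in post-symptomatic HD mice, with 180.3 and 57.1 CPM in the pre-symptomatic pair. Post-symptomatic pairs were below WT in both regions. The both-region change of -1.16 ± 0.42 had an adjusted p of 0.133 by edgeR and 0.0334 by DESeq2.

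Parvalbumin (Pvalb, chr15:78191114-78206400) was 213 and 208 CPM in WT cortex, 183 and 160.4 CPM in pre-symptomatic HD cortex and 85.5 and 75.8 CPM in post-symptomatic HD cortex, a drop to 38.3% of WT with no overlap. The striatum went the other way: 12.5 and 20.1 CPM in WT, 12.9 and 437 CPM in pre-symptomatic HD and 44.6 and 204 CPM in post-symptomatic HD mice. Both striatal libraries numbered 2 were high, and both post-symptomatic libraries were above both WT libraries. The difference between the regional changes was 3.99 ± 2.67 on the log2 scale and did not pass (edgeR adjusted p = 1). Beside this, the 437 CPM belonged to the library with 1340.0 CPM of thalamus markers, and the post-symptomatic pair had thalamus sums of 111 and 115 CPM against 43.6 to 61.1 CPM in the other 3 striatal libraries. Oligodendrocyte marker sums were 4368 and 7296 CPM in that pair, the higher with the higher Pvalb. Their part in the Pvalb values was not tested.

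Calretinin (Calb2, chr8:110137502-110168210) was the gene with the fewest reads, 6 to 304 per library. In cortex it was 8.84 and 10.8 CPM in WT, 12 and 8.16 CPM in pre-symptomatic and 5.07 and 6.45 CPM in post-symptomatic HD mice. In striatum it was 8.04 and 11 CPM in WT and 14.3 and 19.5 CPM in pre-symptomatic HD mice, and the post-symptomatic pair split into 28.3 CPM (304 reads) and 0.642 CPM (6 reads). No direction could be given for striatal Calb2, since leaving out replicate 1 turned its log2 change against WT from 0.41 to -4.07.

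**Figure D2:**
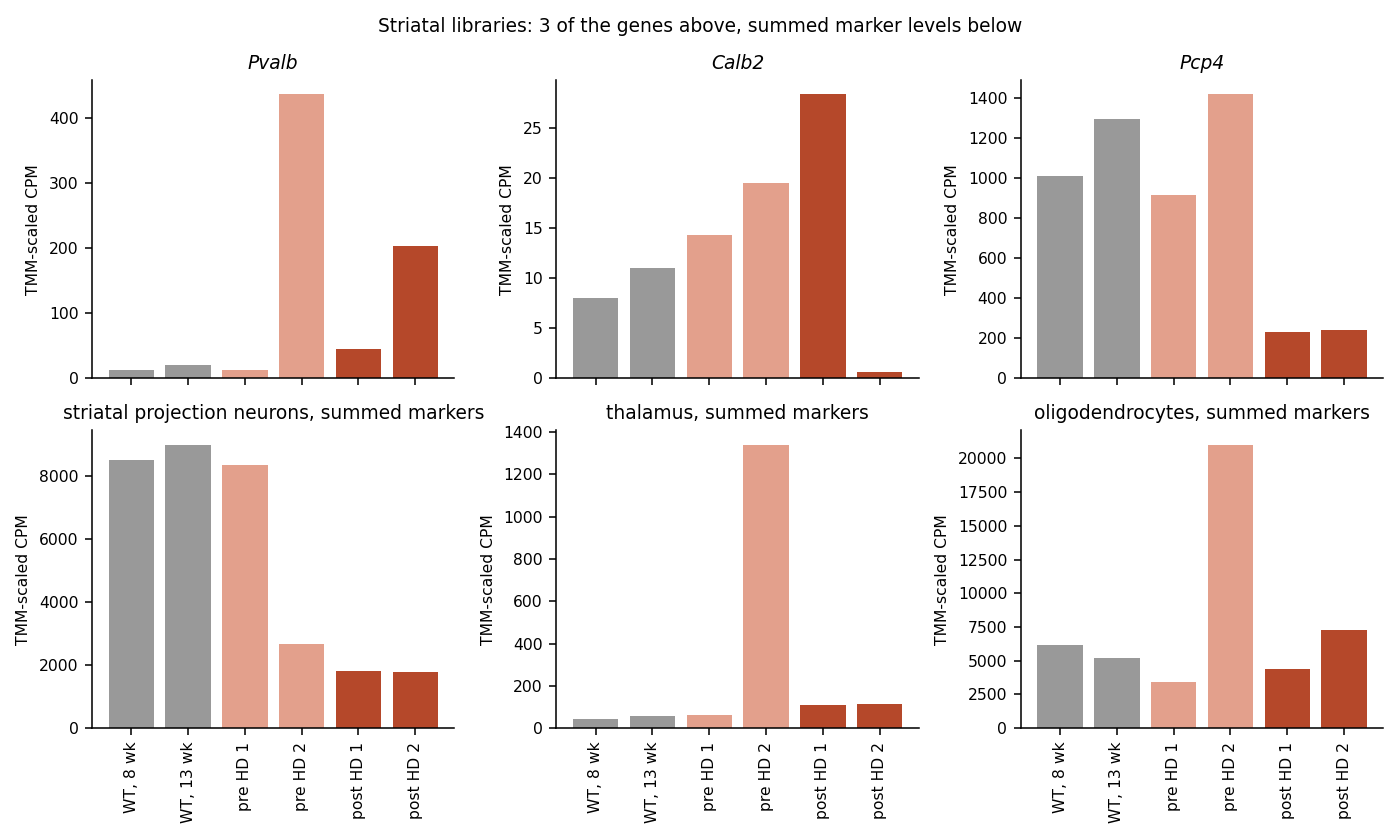
TMM-scaled CPM of Pvalb, Calb2 and Pcp4 (upper row) and summed CPM of 10 striatal projection neuron, 5 thalamus and 8 oligodendrocyte markers (lower row) in the 6 striatal libraries, with numbers for replicates. Pvalb reaches 437 CPM in the library where thalamus and oligodendrocyte markers peak, where Pcp4 is at 1418 CPM, and Pcp4 is lowest in the post-symptomatic pair, at 228 and 242 CPM.

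Summed interneuron markers were lower in the post-symptomatic HD pairs of both regions, as was Pvalb in cortex. The 8 markers, among them Gad1, Sst, Npy and Vip, summed to 1315 and 1259 CPM in WT, 1166 and 1304 CPM in pre-symptomatic HD and 429 and 418 CPM in post-symptomatic HD cortex. In striatum they summed to 1306 and 1226 CPM in WT, 1214 and 1104 CPM in pre-symptomatic HD and 715 and 747 CPM in post-symptomatic HD mice. The list holds Gad1 and Gad2, which are not specific to interneurons in striatum, so the striatal sum is not set against Pvalb. The sum of 5 general neuronal markers was 6237 and 6223 CPM in WT and 4533 and 4301 CPM in post-symptomatic HD cortex, and that of 8 cortical projection neuron markers 1848 and 1974 against 1257 and 1241 CPM. All 3 cortical sums were lower at the post-symptomatic stage. Astrocyte markers summed to 3068 and 2972 CPM in WT and 2268 and 2484 CPM in post-symptomatic HD cortex. Oligodendrocyte markers summed to 4434 and 4159 CPM in WT and 2448 and 2763 CPM in post-symptomatic HD cortex, but already to 2375 and 2700.0 CPM in the pre-symptomatic pair. The part of these sums in the changes of the 10 genes was not tested. Microglia markers gave 363 and 344 CPM in WT against 286 and 215 CPM in post-symptomatic HD cortex. Choroid plexus markers reached 3641 CPM in replicate 2 of the post-symptomatic HD cortex, against 226 CPM in its partner. In replicate 2 of the pre-symptomatic HD striatum they summed to 1707 CPM, against 84.7 to 345 CPM in the other striatal libraries. The part of choroid plexus RNA in the changes of the 10 genes was not tested.

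Across the 10 genes, all 10 had both post-symptomatic HD cortex libraries below both WT cortex libraries, against 30.5% of all genes tested. All 10 were also below both pre-symptomatic HD cortex libraries, against 28.5% of all genes. Without TMM scaling this count was 9, since Ncald stood at 658.3 CPM in 1 post-symptomatic and 657.4 CPM in 1 pre-symptomatic library. Genes above both WT (30.4% of all) or above both pre-symptomatic HD libraries (26.4%) included none of the 10. In striatum 6 of the 10 were below both WT libraries (30.6% of all genes), Pvalb alone was above them (28.2%), 3 were below both pre-symptomatic HD libraries (19.3%) and none were above them (17.1%). Pcp4, chosen for its striatal values, is among the 6 and the 3. All 10 were chosen with earlier results of these data known, so these counts beside all genes are a description.

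**Figure D3:**
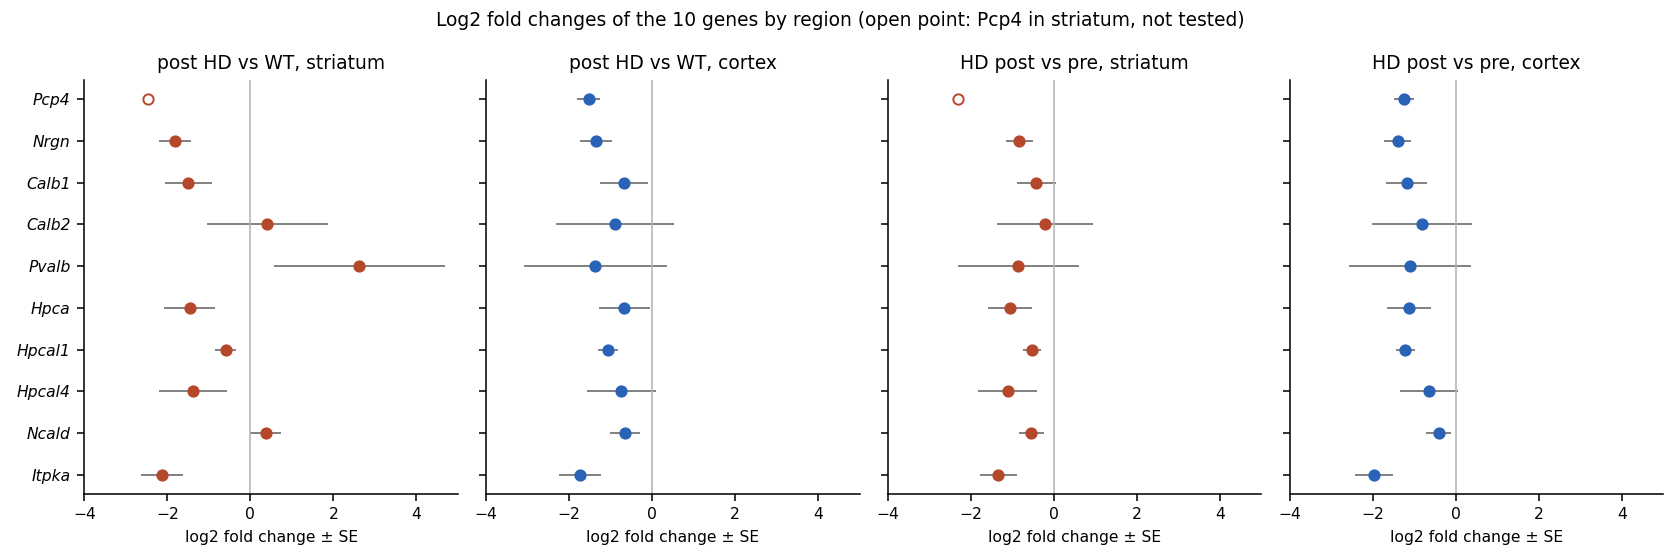
Log2 fold changes of the 10 genes with standard errors, for post-symptomatic HD against WT and against pre-symptomatic HD, in striatum (red) and cortex (blue). All cortical values are below 0, from -0.41 to -1.97, and the striatal Pvalb value of 2.63 has the widest error bar.

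Called genes were few in single regions. In the fit of 8 group means, 0 of the tested members passed an adjusted p of 0.05 in any HD comparison of 1 region, though Hpcal1 passed between stages in cortex under the alternatives given above, the replicate block among them. The share of all genes called was 0.558% for post-symptomatic HD against WT in striatum and 0.0748% in cortex, 0.265% between HD stages in striatum and 0.524% in cortex, and 0.184% for pre-symptomatic HD against WT in striatum and 0.00% in cortex, where 1237 genes had an unadjusted p under 0.05 and DESeq2 called 54. No gene passed the test of a difference between regions in the change against WT (0.00% called by edgeR, 461 genes at an unadjusted p under 0.05, 0 with DESeq2). With pre-symptomatic HD striatum replicate 1 or 2 left out, 55 or 57 genes passed it, and with both striatal HD libraries numbered 2 left out 255 did, 3 of the members among them. With DESeq2 the post-symptomatic comparisons with WT called 3 of 9 members in striatum and 3 of 10 in cortex, where 5.03% and 1.55% of all genes with an adjusted p were called.

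These counts depended on the striatal pairs that enter the estimate of spread. With pre-symptomatic HD striatum replicate 2 left out, 5 of 10 members passed in cortex against WT and 5 against pre-symptomatic HD, and 3 and 4 of 9 passed in striatum. The shares of all genes called in these fits were 5.90%, 8.33%, 9.87% and 7.28%. With replicate 1 of that pair left out instead, the counts were 5, 5, 3 and 1, and the shares 5.79%, 8.16%, 9.79% and 7.48%. With the 6 cortex libraries alone, 8 of 10 members fell against WT, where 13.3% of all genes were called, and 8 of 10 against pre-symptomatic HD, where 15.4% were called. Calb2 (adjusted p = 0.137 and 0.103 by edgeR) and Hpca (0.479 and 0.201) were the exceptions in both. Pvalb, for example, had a log2 fold change of -1.37 ± 0.14 (SE, edgeR adjusted p = 1.37e-07) against WT in that fit, against an SE of 1.72 with the striatal libraries included. None of the 10 passed in pre-symptomatic HD cortex against WT, where 6.63% of all genes were called. Stage within HD mice and the comparison with WT share the post-symptomatic libraries, so they are not separate evidence.

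The additive fit of both regions treats the libraries as independent, with 7 residual degrees of freedom, and striatum and cortex of the same number may come from the same mice, which the labels do not say. In it, 2 of 9 tested members, Nrgn and Itpka, were called against WT at the post-symptomatic stage (7.36% of all genes) and 3 of 9, with Hpcal1, between HD stages (7.46%). All were lower. Without 1 HD library the adjusted p between stages rose to at most 0.0672 for Nrgn, 0.0529 for Itpka and 0.0857 for Hpcal1, and with post-symptomatic HD cortex replicate 1 left out 0 of 9 passed. At the pre-symptomatic stage 0 of 9 were called against WT (2.10% of all genes), with log2 changes from -0.46 for Hpcal4 to 1.17 for Pvalb, and DESeq2 also called 0. Between WT striatum and WT cortex 2 of 9 members were called, Ncald and Nrgn, against 8.10% of all genes, and both were lower in striatum (Nrgn with a log2 difference of -1.31 ± 0.33, edgeR adjusted p = 0.0476, and up to 0.101 with 1 HD library left out). The WT levels of Calb2 (log2 difference -0.05), Hpcal1 (-0.09), Hpcal4 (-0.12) and Itpka (0.18) differed least between regions.

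The wider calcium and calmodulin genes were taken from 5 lists chosen by function. Earlier results of these data were known then, so the list counts are a description. For post-symptomatic HD against WT in both regions, genes of calmodulin-dependent kinases and calcineurin were called most often, with 9 of 18 lower and 0 higher, against 4.26% of all genes lower. Without the WT striatum library of 13 weeks 1 of these 18 was called, when calls over all genes went from 1082 to 29. Camkk2, which activates other calmodulin kinases, had a log2 fold change of -2.15 ± 0.18 (SE, edgeR adjusted p = 0.000117) and Camk1g one of -1.93 ± 0.49 (adjusted p = 0.0433). The calcineurin subunit genes Ppp3ca, Ppp3cb and Ppp3r1 were among the 9. Of 8 other neuronal calcium sensors 2 were lower, and Kcnip2, a subunit of A-type potassium channels, had a log2 fold change of -2.24 ± 0.34 (adjusted p = 0.00491). Calmodulin and small calmodulin-binding proteins had 1 of 7 lower (Pcp4l1), and buffers and other EF-hand proteins 1 of 13 (Necab2). Inositol trisphosphate genes had 1 of 14 lower (Itpr1, the receptor on calcium stores). By edgeR 0 were higher in any list, whereas DESeq2 called 1 of the 7 calmodulin and small binder genes higher and 2 lower. With 1 gene called by edgeR in each of these last 3 lists, nothing is read from their counts.

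The median log2 fold changes of the lists were -0.75 for kinases and calcineurin, -0.62 for the other sensors, -0.53 for buffers, 0.09 for calmodulin and small binders and -0.05 for inositol trisphosphate genes, against 0.01 over all genes tested. Between HD stages in both regions, 9 of 18, 4 of 8, 2 of 13, 1 of 7 and 2 of 14 genes of these lists, ordered by the same names, were lower and 0 were higher, against 5.39% of all genes lower. Leaving out 1 library gave 3 to 11 of 18 for kinases and calcineurin, the fewest without pre-symptomatic HD cortex replicate 1. The log2 fold changes were -2.05 ± 0.43 for Camk1g, -1.88 ± 0.16 for Camkk2 and -1.67 ± 0.29 for Kcnip2, with edgeR adjusted p of 0.0210, 8.43e-05 and 0.00867. At the pre-symptomatic stage 1 gene of all lists, the calmodulin gene Calm3, was called against WT in both regions. Its log2 fold change was -0.70 ± 0.12 (edgeR adjusted p = 0.0115). Of all genes 2.10% were called there, so nothing is read from this 1 call.

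**Figure D4:**
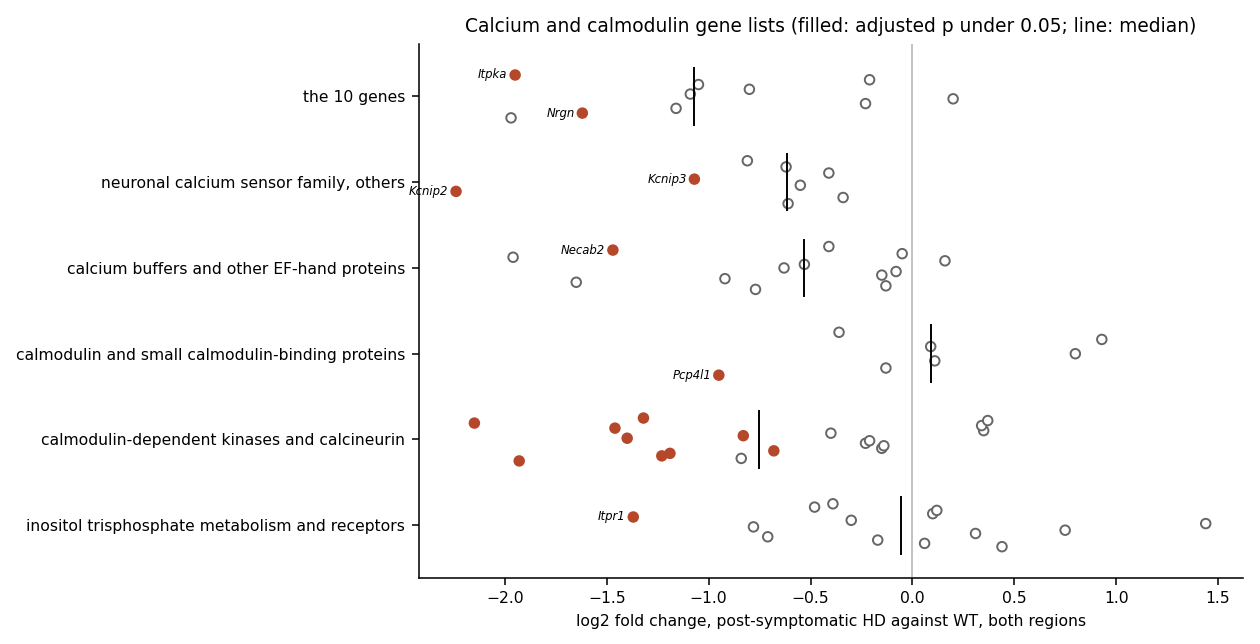
Log2 fold change of each gene in post-symptomatic HD against WT mice, both regions, for the 10 genes and 5 lists, filled where the edgeR adjusted p was under 0.05, with a line at each median. Filled points all lie below 0, from -0.68 to -2.24. Of the 18 kinase and calcineurin genes 9 are filled, against 4.26% of all genes called lower. The point of Pcp4 is open because Pcp4 was not tested.

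Within single regions, Camkk2 was lower in every HD comparison that included the post-symptomatic stage. Its log2 fold changes were -2.14 in striatum and -2.16 in cortex against WT (edgeR adjusted p of 0.0263 and 0.0373), and -1.66 and -2.10 against pre-symptomatic HD (0.0351 and 0.0131). Necab2, an EF-hand protein gene, at -2.07 ± 0.34 (adjusted p = 0.0404), and Camkk1, at -1.57 ± 0.25 (adjusted p = 0.0355), were lower in striatum against WT. Pcp4l1, the relative of Pcp4 that also carries an IQ motif, was lower between HD stages in striatum, at -1.26 ± 0.19 (adjusted p = 0.0488), and Camk2a in cortex, at -1.62 ± 0.28 (adjusted p = 0.0499). In WT mice Necab2 (log2 difference 3.44), Pcp4l1 (2.81) and the calcineurin regulator Rcan3 (1.31) were higher in striatum, and Vsnl1 (-3.01), Cabp1 (-2.18) and Efhd2 (-2.12) were lower, with edgeR adjusted p from 0.000202 to 0.0160.

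The 5 genes whose profile over the 12 libraries was most like that of Pcp4 were Grm4, Gamt, Inf2, Rgs8 and Acy1, out of 10769 genes at 5 CPM or more. Likeness was the root mean square difference between log2(CPM + 1) profiles centred on their own mean, which was 0.37 for Grm4, 0.40 for Gamt, 0.47 for Inf2, 0.48 for Rgs8 and 0.50 for Acy1. Grm4, a metabotropic glutamate receptor gene, stood at 175 and 195 CPM in WT striatum, 159 and 162 CPM in pre-symptomatic and 44.7 and 37.4 CPM in post-symptomatic HD striatum. In cortex it was 73.2 and 58.4, 50.7 and 51.9, and 10.9 and 13.4 CPM in the same order. Libraries and scaling are shared by all these genes, and the likeness is a description.

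**Figure D5:**
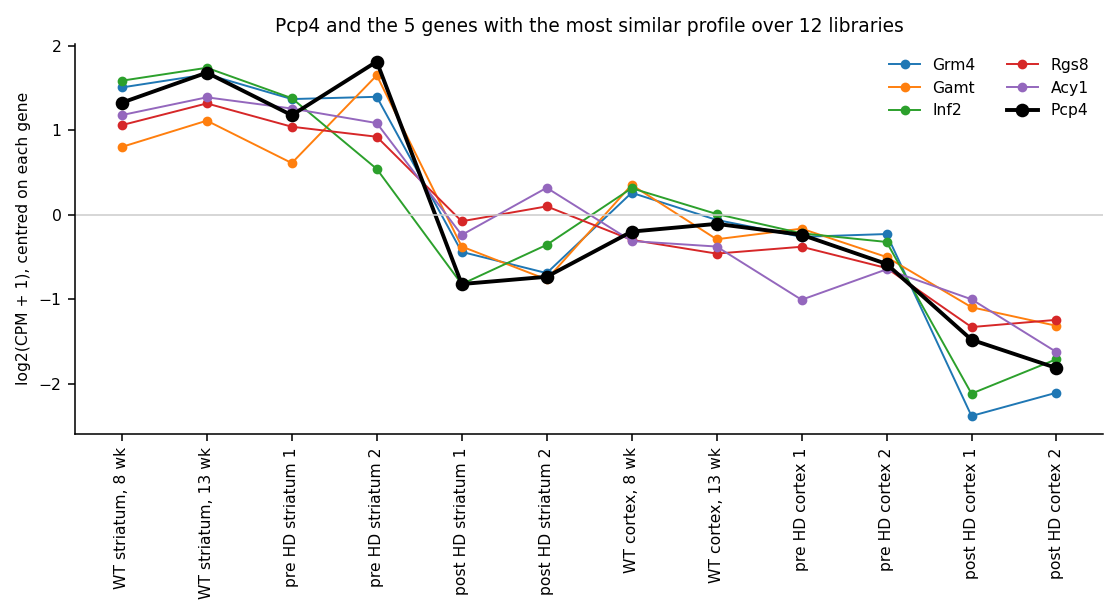
Profiles of Pcp4 (thick line) and the 5 most similar genes over the 12 libraries, as log2(CPM + 1) centred on each gene's mean. All 6 genes have their lowest striatal mean and their lowest cortical mean in the post-symptomatic HD pairs.

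Among the 10 genes themselves, the closest profiles by the same measure were Calb1 and Hpca (0.45), Calb1 and Hpcal1 (0.52), Hpcal4 and Itpka (0.53) and Hpca and Hpcal1 (0.56).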

How the data were processed

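Striatum and cortex of HD (R6/2) and WT mice were measured in 12 RNAseq libraries, made from 500 ng of Trizol-extracted total RNA with the Lexogen QuantSeq kit (Cat#015). The authors deposited raw counts of reads per gene symbol, one table per library. The submitters' processing notes name Bowtie2, bedtools and the mm10 genome. Annotation and counting rule are not given in the sources used here. Tables held 23282 rows, 4306 without a read and 44 repeating a symbol. The 2 libraries of each HD group were not copies of each other (chi-square of their counts divided by its degrees of freedom, 6.98 to 73). Reads carry no molecular identifiers, so totals of 8814386 to 12091201 limit counting error only.

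Counts were tested in R 4.3.3 with edgeR 4.0.16 (filterByExpr with a minimum count of 10, TMM, robust quasi-likelihood, Benjamini-Hochberg adjustment over 14706 genes, threshold 0.05), after the code had been tested on simulated data. Single regions were contrasts in a fit of 8 group means, and both regions used region plus 4 genotype and stage groups. Groups came from the labels. Alternatives were DESeq2 1.42.0, other scalings, no filter, no Rn45s row, each library left out, WT ages pooled, a replicate block, sex as a term and a threshold of 0.01. Members and lists were chosen with earlier results of these data known. Named are the 10 members, up to 3 list genes per direction and comparison with the largest called change at 5 CPM or more, and the 5 genes most like Pcp4. For post-symptomatic HD against WT in both regions, called calcineurin subunit genes and the only called gene of a list are also named, without values. 1 gene of a list is not reported here. Coordinates are from GENCODE M21 (mm10).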

Additional observations from a re-analysis of the deposited data

Results flagged for a closer look

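In the following cases both HD libraries of 1 group lay on 1 side of their WT library and both of the other group on the opposite side, and these differences were not tested. Values are log2 ratios of mean CPM. Against WT at the pre-symptomatic stage, the striatal change less the cortical change was -0.67 for Calb1 (-0.62 and 0.05), 4.49 for Pvalb (4.17 and -0.31), 0.57 for Hpcal1 (0.50 and -0.06) and -1.35 for Itpka (-1.02 and 0.33). Between stages in cortex, the change against WT at the post-symptomatic stage less that at the pre-symptomatic stage was -0.73 for Calb1 (-0.68 and 0.05), -1.07 for Hpca (-0.67 and 0.40) and -2.07 for Itpka (-1.74 and 0.33). In striatum it was -1.09 for Hpcal1 (-0.59 and 0.50). Replicate 2 of the pre-symptomatic HD striatum, the library with thalamus markers, was far from its partner in 3 of these striatal values. Pvalb was 437 CPM there against 12.9 CPM in its partner and 12.5 CPM in WT, Calb1 57.1 against 180.3 and 183 CPM, and Itpka 38.7 against 118 and 159 CPM.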

How the results depend on the processing

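The recomputed values of single members counted here leave out pre-symptomatic HD against WT and the difference between regions. Of 1114 such values, 946 kept their direction and side of the threshold. Of the others, 121 passed newly in the same direction, 25 no longer passed and 22 turned. Counts of calls moved far more, and the lone WT libraries and the spread of the striatal pairs limit them. The cause of the changes was not tested.

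DESeq2 called 539 genes (3 members) for post-symptomatic HD against WT in striatum, 210 (3) in cortex and 1813 (5) in both regions, 251 and 54 for pre-symptomatic HD against WT in striatum and cortex and 674 in both, and 368 (1), 466 (4) and 1702 between HD stages in striatum, cortex and both. Without the filter, 306, 84 (1 member), 100, 10, 195 and 241 (2 members) genes were called in the 6 single-region HD comparisons, ordered post-symptomatic against WT, pre-symptomatic against WT and between stages, striatum first, and 1 member between WT regions. WT libraries of both ages as comparator gave 1512 (2 members), 1003 (4), 276 and 102 for the first 4 of these. A threshold of 0.01 left 3, 0, 0, 6 and 6 genes in those that had any, 355 (1 member) between WT regions, and 294 (1), 56 and 317 (0) in the both-region comparisons ordered the same way. Upper-quartile scaling gave 22 and 46 genes between stages in striatum and cortex and 1 member between WT regions. DESeq2 size factors in edgeR gave 24 genes between stages in striatum and 1 member in cortex. Without Rn45s the values were 19 genes against WT in post-symptomatic cortex, 23 between stages in striatum and 1 member between stages in cortex.

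Leaving out single libraries gave 0 to 1443 genes (0 to 3 members) and 0 to 863 (0 to 5) for post-symptomatic HD against WT in striatum and cortex, 0 to 1971 (0 to 4) and 0 to 129 for pre-symptomatic HD, 0 to 1096 (0 to 4) and 0 to 1218 (0 to 5) between stages, 606 to 2962 (1 to 3) between WT regions, 0 to 57 for the difference between regions, and 29 to 1834 (0 to 5), 0 to 444 and 495 to 1559 (0 to 6) in the both-region comparisons. The highest counts were mostly those without either pre-symptomatic HD striatum library, and 29 was without the WT striatum library of 13 weeks. In 3 other alternatives chosen after seeing the data, WT libraries were left out in turn (within these ranges), the cortex libraries were fitted alone, giving 1947 (8 members), 972 and 2263 (8) genes, and both striatal HD libraries numbered 2 were left out, giving 1877 (6), 1859 (8), 885 (1), 882, 1279 (5) and 2199 (8) genes in the single-region HD comparisons, 3942 (4) between WT regions, 255 (3) for the difference between regions and 2057 (4), 611 and 1671 (6) in the both-region comparisons.

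HD pairs shared replicate numbers, and the differences of replicate 2 from 1 correlated across genes by 0.26 between striatal stages, 0.04 between cortical ones, 0.20 between regions after and 0.11 between regions before onset. The labels tie no number to a mouse, so the libraries are taken to share only a number. A replicate block between HD stages gave 61 genes in striatum and 1 member in cortex and changed no other member count. Between HD stages the sex term below separates the same libraries as this block, so both are the same check there. In the comparisons with WT the libraries could not be paired by number, because the WT labels carry none. Sex, read from X- and Y-linked transcripts, as a term over all 12 libraries (chosen after seeing the data) gave 7 genes for post-symptomatic HD against WT in cortex, 0 for pre-symptomatic HD in striatum, 61 between stages in striatum, 1 member between stages in cortex and 1 between WT regions, and moved no other member count.

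In the comparisons counted above, values that turned belonged to Calb2, Pvalb, Ncald, Calb1 and Hpcal4. Turns in pre-symptomatic HD against WT and in the difference between regions are not listed. Over single libraries left out, the log2 change against WT in post-symptomatic striatum ran from -4.07 to 1.37 for Calb2. Between stages in striatum it ran from -1.02 to 0.64 for Calb1, -4.69 to 0.75 for Calb2, -2.34 to 3.27 for Pvalb, -1.85 to 0.54 for Hpcal4 and -0.97 to 0.06 for Ncald. For post-symptomatic HD against WT in both regions it ran from -1.46 to 0.17 for Calb2, -0.94 to 2.29 for Pvalb and -0.68 to 0.40 for Ncald, and between stages in both regions from -2.02 to 1.15 for Pvalb. With both striatal libraries numbered 2 left out, values between stages in striatum were 0.99 for Calb2, 1.79 for Pvalb and 0.11 for Ncald, and against WT in both regions 0.15 for Calb2 and -0.25 for Pvalb. With sex as a term, Calb2 in post-symptomatic striatum against WT was -0.34. Against WT of both ages, Ncald in post-symptomatic striatum was -0.19.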
